A study of Mus musculus with 13 samples.

Results

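Titin and nebulin are the giant proteins of the muscle sarcomere, and their genes, Ttn and Neb, both lie on mouse chromosome 2. Titin spans the sarcomere from the Z-disc to the M-line and acts as a molecular spring, and nebulin runs along the actin thin filament and helps to set its length. Myf6 (also called MRF4) is a bHLH transcription factor of the myogenic family that pairs with E proteins and binds E-boxes, short motifs of the form CANNTG. Fibroblasts do not build sarcomeres, so these loci are muscle genes seen here in cells that were given a muscle regulator.

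Members were all called peaks that met either of a pair of windows on build GRCm39, chr2:76484000-76863000 around Ttn and chr2:51977000-52319000 around Neb, a rule that used no measured value. The windows held 53 of the 178951 peaks on chromosomes 1 to 19, X and Y, 21 at Ttn and 32 at Neb. The 53 comprised 45 HA peaks, 1 IgG peak and 7 H3K27me3 peaks.

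The study mapped HA-tagged Myf6 in mouse embryonic fibroblasts by CUT&RUN, in which an antibody directs a nuclease to cut out the DNA around the bound protein. All cells carried the Pax7-CreERT2, Rosa26-LSL-tdTomato and CAG-rtTA3 alleles and had been transduced with lentivirus for inducible Myf6, and all were sampled after 24 h in iMPC medium. Cells named +Myf6+F/R/C received doxycycline at 2 µg/mL with 5 µM Forskolin (raises cyclic AMP), 5 µM RepSox (inhibits the TGF-beta receptor) and 3 µM CHIR99021 (inhibits GSK3). Cells named +Myf6 received doxycycline alone, and cells named no dox received neither doxycycline nor the compounds. Each of these had 2 HA and 2 IgG libraries, and 1 further library, from +Myf6+F/R/C cells, mapped H3K27me3, the histone mark of Polycomb repression, as the assay's positive control. The labels do not say that replicates came from separate cultures, so p-values measure the spread between libraries, which may be technical. Peak lists hold no expression values, so the cell type could not be checked against markers.

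Depth was recovered from the peaks as the mean number of fragments per 10 kb. It was 61.9 and 40.9 in the HA libraries of +Myf6+F/R/C, 42.4 and 30.6 in those of +Myf6, and 30.6 and 23.7 in those of no dox. The IgG libraries had from 8.25 to 22.7, and the H3K27me3 library had 54.3. Genome-wide, the HA lists held 38454 and 32033 peaks in +Myf6+F/R/C, 28436 and 35181 in +Myf6, and 2179 and 4230 in no dox. The library names of both induced treatments share a prefix within replicate 1 and another within replicate 2. The H3K27me3 library, titled replicate 1, carries the replicate 2 prefix, and the meaning of these prefixes is not stated.

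HA peaks lay in both windows in all 4 induced libraries and in neither no dox library. At Ttn, the +Myf6+F/R/C libraries had 5 and 3 HA peaks, the +Myf6 libraries 5 and 4, and the no dox libraries 0 and 0. At Neb, the +Myf6+F/R/C libraries had 5 and 6, the +Myf6 libraries 7 and 10, and the no dox libraries 0 and 0. The induced and no dox libraries did not overlap at either gene over all called peaks. Among peaks with a −log10 q of at least 10, +Myf6 averaged 0.5 at Neb and no dox 0, with 1 of the 2 +Myf6 libraries at 0 (exact permutation p = 1.0). IgG libraries had no peak at Ttn, and at Neb 1 peak in +Myf6+F/R/C replicate 2.

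**Figure D1:**
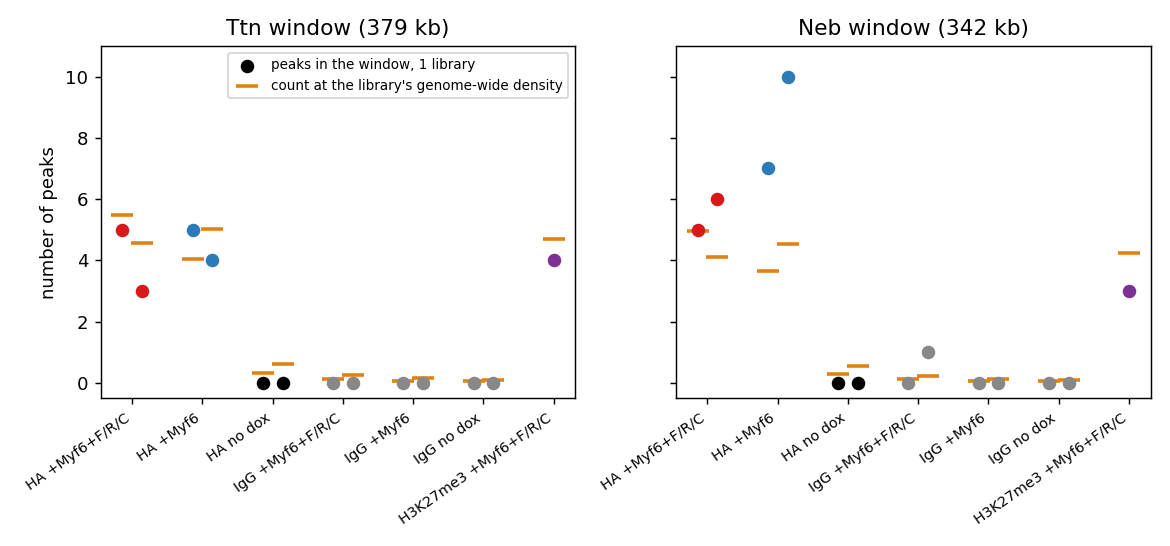
HA, IgG and H3K27me3 peaks per library in the Ttn and Neb windows (dots), with the number that the library's own genome-wide peak density would place in a window of that size (orange dashes). The induced HA libraries hold 3 to 10 peaks a window and the no dox HA libraries hold 0.

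These counts were close to each library's genome-wide peak density at Ttn. That density would place 5.48 and 4.57 peaks in the Ttn window in the +Myf6+F/R/C libraries and 4.06 and 5.02 in the +Myf6 libraries. In the no dox libraries it would place 0.311 and 0.603 at Ttn and 0.280 and 0.544 at Neb, so counts of 0 there are near the density of those lists. Genome-wide, every induced HA library had a higher density than the no dox HA libraries, so induced above no dox is not particular to these genes. At Neb the density would place 4.95 and 4.12 peaks in +Myf6+F/R/C and 3.66 and 4.53 in +Myf6. The observed Neb counts were 5 and 6 in +Myf6+F/R/C and 7 and 10 in +Myf6, and that of +Myf6+F/R/C replicate 1 was about equal to its density. The others were above theirs, most of all +Myf6 replicate 2, with 29.2 peaks per Mb against 13.2 genome-wide. How often other windows of this size exceed their density was not counted.

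The peak counts were compared between groups in 8 exact permutation tests, two-sided, with Benjamini-Hochberg adjustment over the 8. HA exceeded IgG in 4 of 4 induced pairs at each gene. Genome-wide, the IgG lists of induced cells held 952 and 1724 peaks in +Myf6+F/R/C and 437 and 1070 in +Myf6. Their density would place 0.0623 to 0.246 peaks in the Ttn window and 0.0562 to 0.222 in the Neb window. The HA densities given above were higher in every induced library, so HA above IgG is not particular to these genes. At Ttn the means were 4.25 ± 0.957 HA peaks and 0 IgG peaks (SD, n = 4 each; exact permutation p = 0.0286, the smallest possible, adjusted p = 0.114). At Neb they were 7.0 ± 2.16 HA peaks and 0.25 ± 0.5 IgG peaks (SD, n = 4 each; exact permutation p = 0.0286, the smallest possible, adjusted p = 0.114). Neither passed 0.05 after adjustment, and pairing HA with the IgG of the same nuclei gave an exact permutation p of 0.125 at both genes. Without any 1 of the 8 libraries the exact permutation p was 0.0571, the smallest then possible. The HA libraries were deeper than the IgG libraries, and with all 8 thinned to the lowest depth the difference was 1.58 peaks at Ttn and 1.33 at Neb.

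With 2 libraries a group, no comparison of treatments could go below an exact permutation p of 0.333. Ttn averaged 4.0 ± 1.41 HA peaks in +Myf6+F/R/C and 0 in no dox, and 4.5 ± 0.707 in +Myf6 and 0 in no dox (SD, n = 2 each; exact permutation p = 0.333 for both, adjusted p = 0.381). Neb averaged 5.5 ± 0.707 in +Myf6+F/R/C and 0 in no dox, and 8.5 ± 2.12 in +Myf6 and 0 in no dox (SD, n = 2 each; exact permutation p = 0.333 for both, adjusted p = 0.381). Between the induced treatments, the +Myf6+F/R/C count was lower than the +Myf6 count by a mean difference of -0.5 at Ttn (exact permutation p = 1.0) and -3.0 at Neb (exact permutation p = 0.333, adjusted p = 0.381). Neither difference passed the test. Among peaks with a −log10 q of at least 5 both treatments averaged 3.5 at each gene, a difference of 0, and with at least 10 the sign changed, to 0.5 at Ttn and 1.0 at Neb. Leaving out +Myf6+F/R/C replicate 2 also gave 0.5 at Ttn. Without the 50 kb at either end of each window, Ttn averaged 2.0 HA peaks in each induced treatment, a difference of 0. Neb then averaged 3.0 in +Myf6+F/R/C and 5.5 in +Myf6. The window counts thus include peaks in the flanks of both genes.

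HA and IgG peaks that overlapped were merged into 23 regions, numbered from the upstream flank of each gene to its far end. At Ttn there were 7 regions and at Neb 16, of which 22 held a peak of an induced HA library. All 4 induced libraries shared 6 of these 22 (27.3%, 95% exact Clopper-Pearson interval 10.7 to 50.2%), against 15.3% of such regions genome-wide. A single list held 11 of the 22 (50.0%), against 52.6% genome-wide, and the remaining 5 were in 2 lists. Thus the genome-wide share of shared regions lies within the interval of the loci.

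None of the 22 regions held a control peak, and 7.33% of such regions did genome-wide. A count of 0 allows a share of up to 13.6%, taken as 3 divided by 22, an approximate limit and not an exact interval. Sites, meaning regions in both HA lists of a treatment and in none of the 8 control lists, numbered 6 of 23 in +Myf6+F/R/C (26.1%, against 21.0% of all regions) and 7 of 23 in +Myf6 (30.4%, against 17.5%). There were 3 sites of each treatment at Ttn, and 3 of +Myf6+F/R/C and 4 of +Myf6 at Neb. Among peaks with a −log10 q of at least 5, Ttn kept 3 of each, and Neb had 2 of +Myf6+F/R/C and 1 of +Myf6. With a single list enough for a site, Ttn had 5 without replicate 2 of either treatment. Neb then had 6 and 5 in +Myf6+F/R/C without replicates 1 and 2, and 10 and 7 in +Myf6 without replicates 1 and 2.

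**Figure D2:**
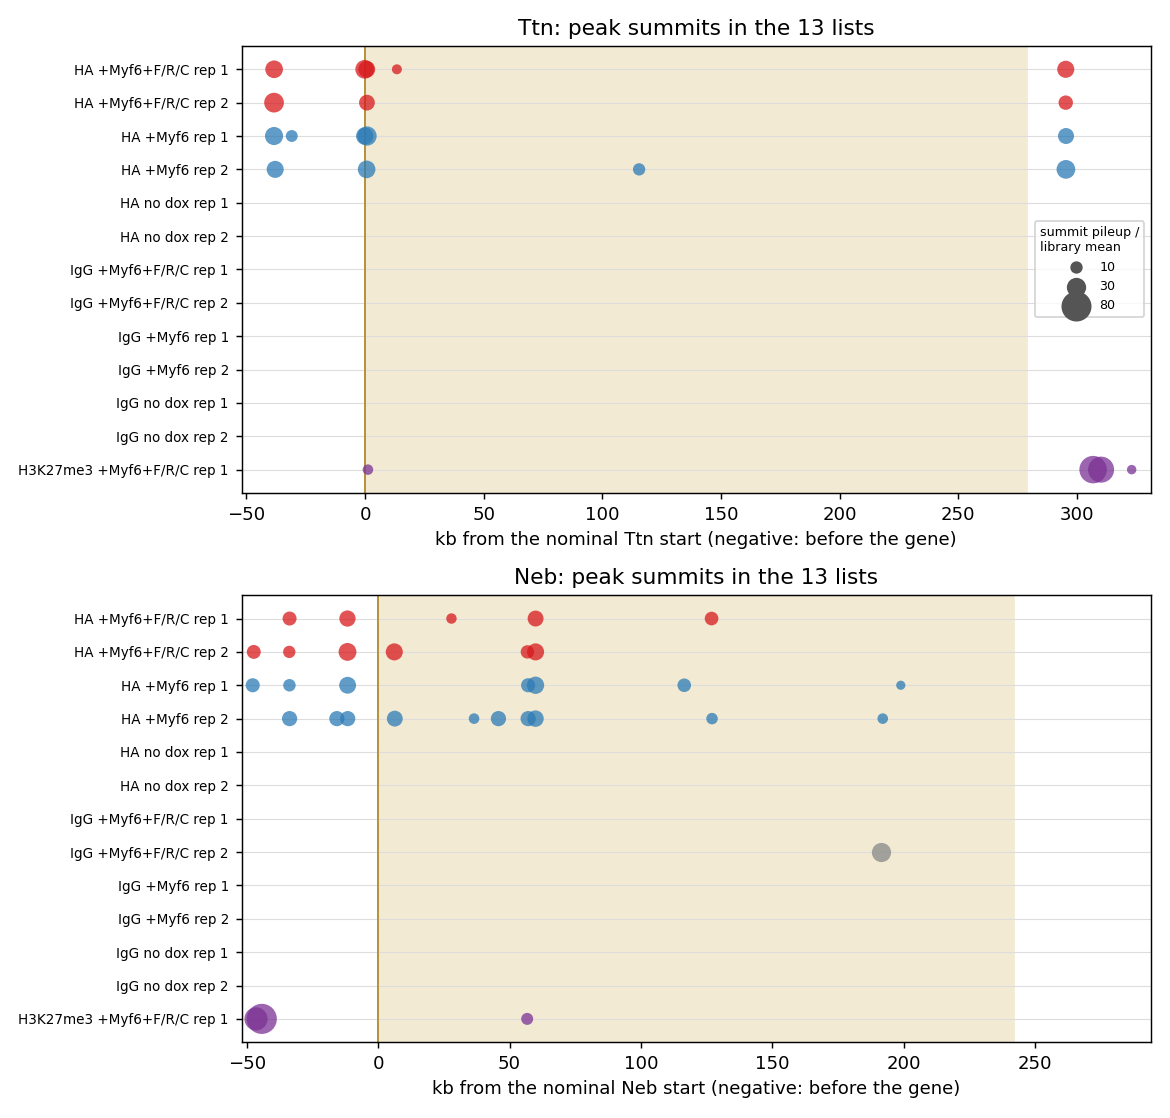
Summits of all called peaks along the Ttn and Neb windows, by distance from the nominal gene start in kb, 1 line per library. Dot area rises linearly with summit pileup over the library mean, from an offset, and the nominal gene is shaded. The shared HA summits at Ttn lie in the upstream flank, at the start and beyond the gene's far end, and those at Neb lie in the upstream flank and inside the gene.

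Distances are from a nominal start, since no GRCm39 annotation was used here. Both genes are read on the minus strand, and the nominal start is 50 kb inside the higher end of the window, at 76813000 for Ttn and 52269000 for Neb. For Ttn the RefSeq length of 278578 bases (GRCm38.p6) would put it 0.423 kb further in. For Neb the RefSeq length of 202159 bases would put it 39.8 kb further in, so what counts as upstream of Neb is uncertain by that much. In RefSeq order, Ttn lies between the protein-coding genes Ccdc141, before its start, and Plekha3, beyond its end, and Neb between Arl5a, before its start, and Rif1, beyond its end. Exons and introns were not placed.

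The Ttn start held a pair of adjacent regions. The first, Ttn 3 at chr2:76812857-76813658, ran from 658 bases before the nominal start to 143 bases inside it. Its peaks came from replicate 1 of both treatments, with 35 fragments at the summit in +Myf6+F/R/C and 20 in +Myf6, and summits 8 bases apart. Regions in both replicate 1 lists and neither replicate 2 list were 1 of the 22, against 4.79% genome-wide. Scaled to the depth of the replicate 2 libraries, a summit of that height would hold 22.4 fragments in +Myf6+F/R/C and 15.7 in +Myf6, above the lowest callable pileups of 5 and 4 at mean background. That height is the mean of the called peaks alone, so it may overstate the other libraries. The local background at these peaks was above the mean, at 5.15 times the library mean in +Myf6+F/R/C replicate 1 and 4.12 times in +Myf6 replicate 1. Its part in which libraries called the region was not tested.

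The second, Ttn 4 at chr2:76811987-76812457, lay 0.543 to 1.01 kb inside the nominal start and was called in all 4 induced libraries. Its summits held 28 and 17 fragments in +Myf6+F/R/C and 25 and 15 in +Myf6. The authors' fold enrichments over local background, which are each list's own values, were 4.75 and 4.47 in +Myf6+F/R/C and 6.87 and 5.77 in +Myf6. The local background here was again raised, at 5.02 and 4.30 times the library mean in +Myf6+F/R/C and 4.08 and 3.60 times in +Myf6. An H3K27me3 peak at chr2:76811443-76811899 (9 fragments, fold 5.27) ended 87 bases from this region without meeting it, in a neighbourhood where H3K27me3 background was 1.00 times its library mean.

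The RefSeq promoter of Ttn is shown because these peaks surround the gene's start and Myf6 belongs to a family that binds E-boxes. It covers 250 bases before to 50 after the RefSeq start on the minus strand (GRCm38.p6, chr2:76982498-76982797), with its E-box in capitals.
Ttn promoter: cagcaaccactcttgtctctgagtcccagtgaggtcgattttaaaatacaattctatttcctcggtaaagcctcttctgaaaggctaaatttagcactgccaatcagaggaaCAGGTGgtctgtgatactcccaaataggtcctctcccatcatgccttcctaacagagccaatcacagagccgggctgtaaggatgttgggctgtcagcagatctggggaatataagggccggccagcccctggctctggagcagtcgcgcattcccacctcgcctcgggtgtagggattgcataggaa
The promoter held 1 match to CANNTG, a pattern that reads the same on both strands. The match was CAGGTG, starting 138 bases before the start. CANNTG was found in 72.3% of the 32851 RefSeq promoters, and CAGGTG or its reverse complement CACCTG, a subset of CANNTG, in 20.2%. CAGCTG, also a subset, was in 16.3% of promoters and not in this window of Ttn. The match is a description of the sequence, and the peaks, which are on another build, were not placed on it base by base. Its place among the peaks depends on the start taken. With the nominal start, Ttn 3 would cover the whole promoter window. With the start from the RefSeq length, Ttn 3 lay more than 250 bases before the start and Ttn 4 more than 50 bases inside it. Neither region would then meet the promoter window, so the match is not shown to lie under an HA peak.

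**Figure D3:**
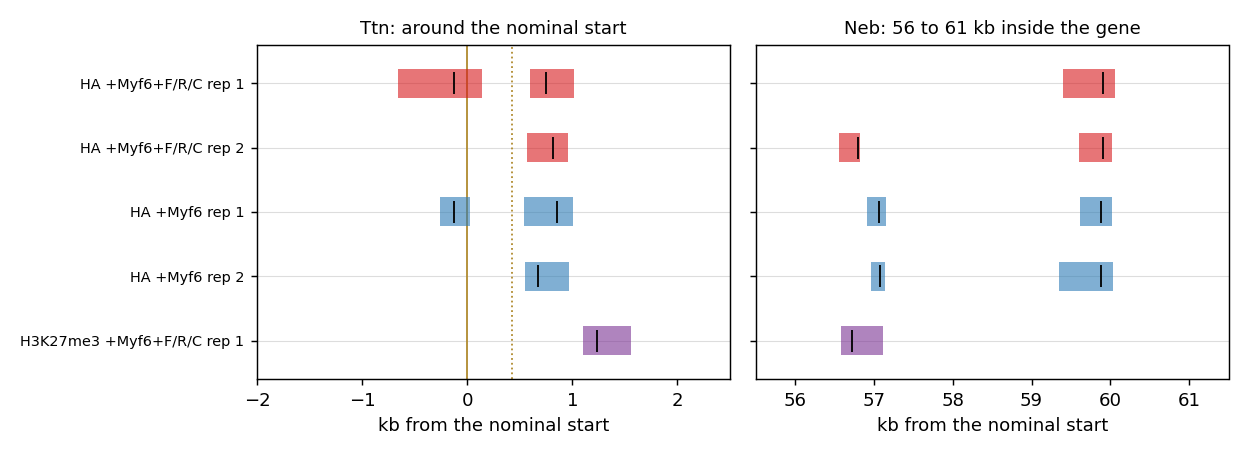
Peak intervals (bars) and summits (ticks) around the Ttn start and inside Neb, by distance in kb from the nominal start (solid line), with the Ttn start from the RefSeq length dotted. At Ttn the region of all 4 induced HA libraries lies beside the H3K27me3 peak, and at Neb the H3K27me3 peak lies over the HA peaks of 3 induced libraries.

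The other shared Ttn regions lay outside the gene. Ttn 1, at chr2:76850517-76851658, began 37.5 kb before the start, with 31 and 27 summit fragments in +Myf6+F/R/C and 22 and 14 in +Myf6. Ttn 7, at chr2:76517357-76518031, lay 295.0 kb past the start and so beyond the nominal gene of 279.0 kb, with 29 and 14 summit fragments in +Myf6+F/R/C and 17 and 17 in +Myf6. In its own list the fold of Ttn 7 reached the 97.8th percentile (+Myf6 replicate 2), and its lowest was the 69.3rd (+Myf6+F/R/C replicate 2). The other 3 Ttn regions were in 1 list each, with 9 summit fragments at Ttn 5 (+Myf6+F/R/C replicate 1), 9 at Ttn 2 (+Myf6 replicate 1) and 7 at Ttn 6 (+Myf6 replicate 2). Ttn 6 was the only HA region between 20 kb inside the start and the end of the nominal gene.

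Along Ttn, HA summits within 10 kb either side of the start numbered 2 and 1 in +Myf6+F/R/C and 2 and 1 in +Myf6. The rest of the gene body, 269.0 kb, held 1 and 0 in +Myf6+F/R/C and 0 and 1 in +Myf6. Per 100 kb, the start exceeded the body by 7.31 ± 2.89 summits (SD over the 4 induced libraries). That difference was 14.8 with 5 kb either side and 4.28 with 20 kb, each larger than its SD. The summits counted at the start were the same with 5 kb as with 10 kb. With 20 kb they rose only in +Myf6+F/R/C replicate 1, from 2 to 3, so the change in the difference mostly follows the width taken. Summits at other gene starts were not counted, since no GRCm39 annotation was used, so the difference is not shown to be particular to Ttn. At Neb the same difference was 0.884 ± 2.86, smaller than its spread, but it was -1.79 ± 0.799 with 5 kb either side and 2.69 ± 2.06 with 20 kb, so its sign turned with the width taken. The Neb body held 3 and 2 summits in +Myf6+F/R/C and 4 and 6 in +Myf6.

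At Neb, the shared regions were a pair in the upstream flank and 1 inside the gene. Neb 4, at chr2:52280426-52280844 and 11.4 kb before the nominal start, had 26 and 22 summit fragments in +Myf6+F/R/C and 19 and 11 in +Myf6. Neb 2, at chr2:52302483-52303085 and 33.5 kb before the start, had 19 and 10 in +Myf6+F/R/C and 10 and 11 in +Myf6. Neb 11, at chr2:52208946-52209655 and 59.3 kb inside, had 25 and 20 in +Myf6+F/R/C and 20 and 13 in +Myf6. The 4 summits of Neb 11 lay within 34 bases of each other, the tightest of the 6 shared regions, and those of Ttn 1 spread over 481 bases, the widest.

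Beside Neb 11 lay the one place in the windows where HA and H3K27me3 peaks overlapped. The H3K27me3 peak chr2:52211887-52212423 (12 fragments, fold 6.70) met Neb 10 by 197 bases and Neb 9 by 248 bases. Neb 10, at chr2:52211847-52212083, was called in both +Myf6 libraries, with 13 and 11 summit fragments. Neb 9, at chr2:52212176-52212444, was called in +Myf6+F/R/C replicate 2 alone, with 12. Neb 10 was the 1 of 22 regions shared by the +Myf6 replicates but not called with the compounds (2.43% genome-wide). The converse, +Myf6+F/R/C replicates alone, held for 0 of 22 (4.28% genome-wide). Neb 9 lay beside Neb 10 and met the same H3K27me3 peak, and the 1 bp merge kept them apart. Scaled to the +Myf6+F/R/C libraries, the summit of Neb 10, averaged over its called peaks alone, would hold 21.0 and 14.6 fragments, which may be an overestimate. The lowest callable pileups there were 6 and 5 at mean background. Local background was raised, at 3.49 and 3.21 times the library mean for Neb 10 and 3.96 times for Neb 9. Its part in which libraries called Neb 10 was not tested.

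H3K27me3 peaks met 2 of the 22 regions (9.09%, exact Clopper-Pearson interval 1.12 to 29.2%), against 26.7% genome-wide, a value within the interval. Both lay in Neb, and no HA peak of either had a −log10 q of at least 5. None of the 6 shared regions met one, too few to set against the 40.0% of shared regions that did genome-wide. The tallest H3K27me3 peaks of the windows met no HA region, though those at Neb lay near one. Beyond the Ttn end, peaks of 68 and 61 fragments lay 10456 and 13996 bases from Ttn 7, in background 17.3 and 17.0 times the library mean, and a peak of 7 fragments lay 27356 bases away. Upstream of Neb, peaks of 82 and 48 fragments lay 1446 and 690 bases from Neb 1, in background 23.4 and 22.9 times the library mean. The mark was mapped once, with the compounds present, so its level without the compounds or without Myf6 was not measured.

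The remaining Neb regions were weaker or held by fewer libraries. Neb 5, at chr2:52262152-52263042 and 5.96 kb inside the nominal start, was called in replicate 2 of both treatments, with 20 summit fragments in +Myf6+F/R/C and 12 in +Myf6. It was the 1 of 22 regions in both replicate 2 lists and neither replicate 1 list (3.67% genome-wide). Scaled to replicate 1, its summit would hold 26.8 fragments in +Myf6+F/R/C and 18.0 in +Myf6, above the lowest callable pileups of 6 and 5 at mean background. Here too the height is the mean of the region's called peaks alone. The local background at its peaks was 4.15 times the library mean in +Myf6+F/R/C replicate 2 and 3.24 times in +Myf6 replicate 2, and its part in which libraries called the region was not tested. Neb 1 held 13 in +Myf6+F/R/C replicate 2 and 13 in +Myf6 replicate 1, and Neb 13 held 18 in +Myf6+F/R/C replicate 1 and 6 in +Myf6 replicate 2. Both joined opposite replicates of the treatments. Single-list peaks at Neb held 10 fragments in +Myf6+F/R/C (Neb 6) and from 5 to 12 in +Myf6 (Neb 3, 7, 8, 12, 15 and 16). The control peak, Neb 14 at chr2:52077622-52077787, was an IgG peak of 5 fragments in +Myf6+F/R/C replicate 2 that met no HA peak.

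To compare treatments at the 6 shared regions, each summit pileup was divided by its library's mean pileup. At Ttn 4 the ratio was 25.9 ± 2.41 in +Myf6+F/R/C and 33.5 ± 4.32 in +Myf6 (SD, n = 2 each), and the treatments did not overlap (difference -7.68; exact permutation p = 0.333, the smallest possible). At Ttn 1 it was 34.4 ± 5.54 in +Myf6+F/R/C and 30.3 ± 2.65 in +Myf6, and at Ttn 7 24.2 ± 6.12 in +Myf6+F/R/C and 29.7 ± 6.83 in +Myf6. The ranges of the treatments overlapped at both. At Neb 2 it was 16.5 ± 3.18 in +Myf6+F/R/C and 18.5 ± 5.46 in +Myf6, and at Neb 4 it was 28.4 ± 4.00 in +Myf6+F/R/C and 25.1 ± 3.86 in +Myf6. At Neb 11 it was 26.5 ± 2.69 in +Myf6+F/R/C and 27.8 ± 2.02 in +Myf6, and all 3 overlapped. Among all 10625 shared regions, +Myf6+F/R/C lay wholly below +Myf6 in 27.2% and wholly above in 11.7%. The loci had 1 of 6 below and 0 of 6 above, a share near that background.

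**Figure D4:**
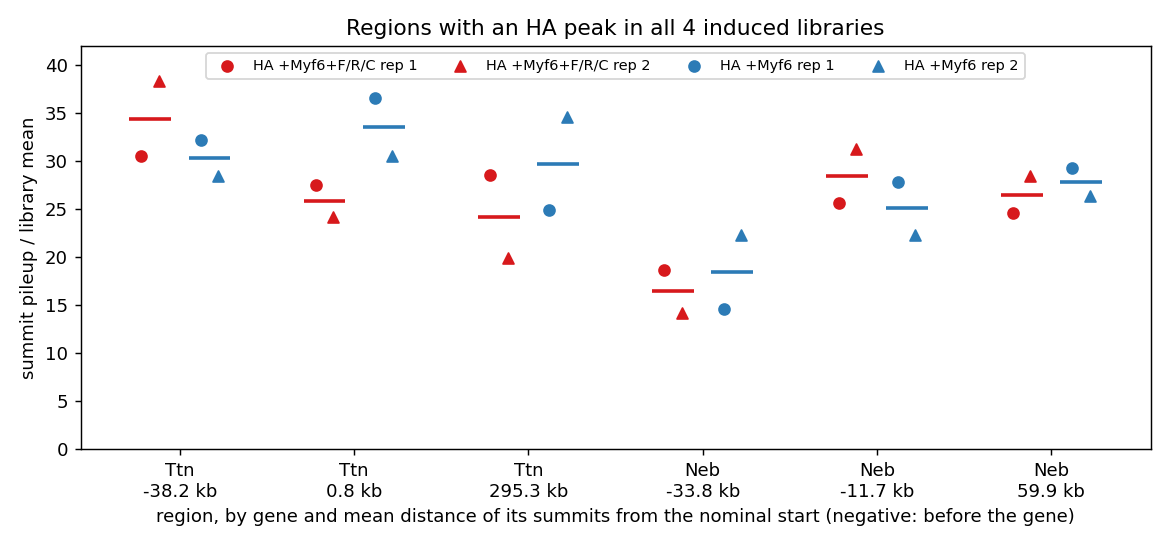
Summit pileup over the library mean at the 6 regions called in all 4 induced HA libraries, +Myf6+F/R/C left of +Myf6 (circles replicate 1, triangles replicate 2, bars the means). At Ttn 4 both +Myf6+F/R/C values lie below both +Myf6 values, and at the other 5 regions the treatments overlap.

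The 6 shared regions had no control peak. Scaled to no dox replicate 1, they would reach 8.14 to 15.1 fragments against a lowest callable pileup of 5 at mean background, and scaled to no dox replicate 2, 4.47 to 8.28 against 4. Scaled to the IgG libraries, 6 would reach that floor in +Myf6 replicate 2 and 5 in each of the other 5 libraries. The smallest of these expected pileups lie close to the floor. Local background was raised at all 6 in the induced HA libraries. It ran from 1.86 times the library mean at Neb 2 (+Myf6 replicate 1) to 5.02 times at Ttn 4 (+Myf6+F/R/C replicate 1). A raised background puts the floor higher, and the part of depth in the missing control peaks was not tested.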

How the data were processed

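Per the labels' protocols, nuclei were profiled by CUT&RUN with HA, IgG or H3K27me3 antibodies, and the authors deposited 1 narrowPeak list per library. Per the submitters' processing notes, MACS2, deepTools and DiffBind were used on build GRCm39. The sources used here do not give tool versions or an aligner. Drosophila spike-in nuclei were added, per the labels, and no spike-in scaling was applied here. The deposited values are the authors' fold enrichment at the summit, its −log10 p-value and −log10 q-value, and the summit offset.

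The whole-number summit pileup and expected pileup were solved from fold and −log10 p (tolerance 0.002; at least 99.9% of peaks in each list), which gave each library's depth. The depth is an estimate, and intervals cover counting error only. HA and IgG peaks on chromosomes 1 to 19, X and Y were merged at 1 bp. Peak counts per window were compared by exact permutation tests, two-sided. Calculations used Python 3.11.15, numpy 2.4.6, pandas 2.3.3 and scipy 1.17.1, and were tested on simulated data.

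By rule, regions in all 4 induced lists and those with a control or H3K27me3 peak were described. The other regions are also named, so that each is accounted for, and the detail given on Ttn 3 and Neb 5 was chosen after their values were seen. The members and lists were chosen with earlier results of these data known. Per the labels, an HA library and the IgG library that shares its treatment and number come from the same nuclei, and these were paired in an alternative. Whether equal numbers pair replicates of different treatments is not stated. A list of sarcomere partner genes, the genes most alike in their peaks and E-boxes at summits need a GRCm39 genome or annotation, which was not used here.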

Additional observations from a re-analysis of the deposited data

How the results depend on the processing

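Stricter q-values, a wider overlap, covered length, another promoter end and each library left out in turn were tried. The +Myf6+F/R/C minus +Myf6 difference in HA peaks changed sign at Ttn with a −log10 q of at least 10 (0.5), by covered length (0.165 kb) and over libraries left out (-1.5 to 0.5), and at Neb with a −log10 q of at least 10 (1.0; -4.5 to -1.5 over libraries left out). HA minus IgG under the replicate block was 4.25 peaks at Ttn and 6.75 at Neb, with an exact permutation p of 0.125, the smallest 4 pairs allow. Over libraries left out it was 4.0 to 4.67 at Ttn and 5.75 to 7.42 at Neb, and at Neb with a −log10 q of at least 10 it was 1.0 (exact permutation p = 0.143). With 1 library of a treatment left out, sites at Ttn ranged from 3 to 5 with the compounds and 4 to 5 with doxycycline alone, and at Neb from 5 to 6 with the compounds and 7 to 10 with doxycycline alone, because 1 list then makes a site. With a −log10 q of at least 5, Neb had 2 sites of +Myf6+F/R/C, 1 site of +Myf6 and 0 regions that met H3K27me3. The Ttn start exceeded the gene body by 14.8 summits per 100 kb with 5 kb either side and by 4.28 with 20 kb. At Neb it differed from the body by -1.79 with 5 kb and 2.69 with 20 kb. Thinned to the lowest depth compared, HA minus IgG was 1.58 at Ttn and 1.33 at Neb. Without thinning, +Myf6 minus no dox at Neb was 3.5 with a −log10 q of at least 5 and 0.5 with at least 10. A start from the RefSeq length and fold in place of pileup were chosen after seeing the data. With fold, although each list has its own, the +Myf6+F/R/C minus +Myf6 differences were -0.12 at Ttn 1, 0.16 at Neb 2 and 0.20 at Neb 11, opposite in sign to those in pileup. Other causes were not tested. Across treatments, deviations of same-numbered HA libraries over 71864 regions correlated at 0.113 (+Myf6+F/R/C with +Myf6), 0.0185 (+Myf6+F/R/C with no dox) and 0.00937 (+Myf6 with no dox), and the labels do not say whether equal numbers, or the name prefixes that the induced libraries share, mark a common batch. Not run, for want of a GRCm39 genome or annotation, were the alternatives on the annotated gene alone, on sarcomere partner genes and on E-box windows. In place of the annotated gene, the nominal gene without its flanks was counted, with the means given above. HA minus IgG was then 2.0 peaks at Ttn and 4.0 at Neb.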
